A study of Homo sapiens with 6 samples.

Results

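The genes described here are the 4 TEAD transcription factors (TEAD1, TEAD2, TEAD3 and TEAD4), 3 genes whose proteins restrain YAP or TEAD (VGLL4, AMOTL1 and AMOTL2), and 3 direct targets of YAP (ANKRD1, CCN2, also called CTGF, and CCN1, also called CYR61). They were chosen by symbol. All 10 were among the 35793 genes listed, and all 10 passed the filter of a mean of at least 10 normalized counts that left 15536 genes for testing. RNA came from cardiomyocytes differentiated from WTC11, an established line of human induced pluripotent stem cells. The wild type was unedited WTC11, and the knockout was a derivative of that line, named STK25KO, in which CRISPR/Cas9 had disrupted both copies of STK25. Cells of both genotypes were taken on day 15 of differentiation with no further treatment, with 3 biological replicates each. The labels name a single knockout line, so the edit and any other difference between the 2 lines cannot be told apart, and they do not say how the replicate cultures were separated.

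TEAD proteins bind DNA at the MCAT element and have little activity of their own. They recruit the coactivators YAP and TAZ, which the Hippo kinases LATS1 and LATS2 keep out of the nucleus. STK25 is a kinase of the germinal centre family that has been linked to Hippo signalling and to the STRIPAK complex. In heart muscle, TEAD1 and its relatives bind promoters of contractile genes, and YAP activity is known for its part in the growth of the fetal heart.

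The promoters of the members that carry MCAT elements are shown first, together with that of AMOTL1, which is 1 of the 2 members past the threshold below. Each is the window from 250 bases before to 50 after a RefSeq start site (build GRCh38.p14), written 5′ to 3′ on the strand of the gene, with the core of the MCAT element (CATTCC, or GGAATG on the other strand) in capitals. CCN2 lies on the minus strand at chr6:131951323-131951622, ANKRD1 on the minus strand at chr10:90921038-90921337, the AMOTL2 window with a match on the minus strand at chr3:134374398-134374697, and AMOTL1 on the plus strand at chr11:94768106-94768405.
CCN2: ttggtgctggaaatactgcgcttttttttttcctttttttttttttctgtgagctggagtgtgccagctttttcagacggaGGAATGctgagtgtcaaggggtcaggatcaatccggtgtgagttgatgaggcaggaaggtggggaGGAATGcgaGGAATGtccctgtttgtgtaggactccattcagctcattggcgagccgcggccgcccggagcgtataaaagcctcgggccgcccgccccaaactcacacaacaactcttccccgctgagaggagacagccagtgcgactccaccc
ANKRD1: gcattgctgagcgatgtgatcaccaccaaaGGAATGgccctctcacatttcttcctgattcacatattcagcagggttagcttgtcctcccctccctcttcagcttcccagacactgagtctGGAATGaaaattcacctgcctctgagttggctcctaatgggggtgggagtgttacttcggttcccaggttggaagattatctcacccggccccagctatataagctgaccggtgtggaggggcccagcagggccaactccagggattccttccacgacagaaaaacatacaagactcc
AMOTL2: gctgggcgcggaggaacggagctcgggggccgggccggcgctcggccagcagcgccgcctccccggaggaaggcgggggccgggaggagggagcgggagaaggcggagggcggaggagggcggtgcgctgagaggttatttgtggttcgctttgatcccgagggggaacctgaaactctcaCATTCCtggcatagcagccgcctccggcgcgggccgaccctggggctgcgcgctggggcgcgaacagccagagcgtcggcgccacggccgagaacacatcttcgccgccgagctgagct
AMOTL1: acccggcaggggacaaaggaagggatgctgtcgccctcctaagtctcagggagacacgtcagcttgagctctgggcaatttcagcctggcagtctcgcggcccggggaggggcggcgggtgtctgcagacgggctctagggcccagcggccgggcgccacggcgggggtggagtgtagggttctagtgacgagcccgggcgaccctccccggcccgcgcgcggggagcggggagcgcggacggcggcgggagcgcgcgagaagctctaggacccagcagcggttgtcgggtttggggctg

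The CCN2 window held GGAATG 3 times, with first bases at -169, -104 and -95 from the start site, and the last pair lay close together. ANKRD1 held it 2 times, at -220 and -128, and AMOTL2 held CATTCC once, at -69. Of 35116 such windows in the RefSeq table, 14.0% held the core at least once on either strand, 1.37% at least 2 times and 0.128%, or 45 windows, at least 3 times. Windows were found for 7 of the 10 members, 13 windows in all, and the core was in none of those of TEAD2, TEAD3, VGLL4 and AMOTL1 nor in the other AMOTL2 window. The AMOTL1 window, the AMOTL2 window with a match, every VGLL4 window and a TEAD2 window lie wholly inside the gene as GENCODE draws it. The start site of the ANKRD1 window also lies inside its gene. TGANTCA, read by AP-1, was searched on both strands and occurred once in the ANKRD1 window, as TGATTCA at -195, and in none of the other members' windows (7.71% of all windows). The CArG box, read by SRF, was in none of them (1.29% of all windows). These matches describe the letters of the windows only, and no binding was measured.

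The libraries held from 22443904 to 53224112 reads assigned to genes, a 2.37-fold range. STK25 fell from a mean of 8119 to 3720 normalized counts, with no overlap between genotypes (limma adjusted p = 0.00903, or 0.0611 without wild-type replicate 1). All 8 cardiomyocyte markers examined had reads in every library, and TNNT2, cardiac troponin T, ran from 206999 to 359162 normalized counts. The summed level of the 8 was between 1027253 and 1449389 in the wild type and between 1525576 and 3126939 in the knockout. MYL7 weighed most in this sum, with means of 541523 in the wild type and 1481020 in the knockout, and 2324410 in knockout replicate 1. The log2 fold change was above 0 for 5 of the 8 and below 0 for 3. Only NKX2-5, a cardiac transcription factor, passed the threshold with limma, where 12.8% of all genes passed, and it was lower in the knockout. The second principal component, with 24.1% of the variance, separated wild-type replicate 2 and knockout replicate 1 from the remaining 4, and the labels give no batch. Counts past the threshold are therefore also given without these 2 libraries. With all libraries scaled to equal totals, the median log2 fold change over every tested gene was -0.28 in place of 0.0052, and 27.1% of calls in place of 46.8% were then higher in the knockout.

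With limma, 2 of the 10 members, CCN2 and AMOTL1, had an adjusted p under 0.05, both higher in the knockout. Over all genes tested 12.8% passed this threshold and 5.97% passed it as higher. The members' median log2 fold change was 0.74, against 0.0052 for all genes. For 5 members the genotypes did not overlap, 4 of them higher and 1 lower, where 33.4% of all genes showed no overlap. DESeq2 on the recovered reads put 4 members past the threshold (CCN2, AMOTL1, TEAD1 and ANKRD1), where 20.7% of all genes passed. Without the 2 libraries that stand apart, 6 members passed with limma (these 4, AMOTL2 and CCN1), all higher, but 30.6% of all genes also passed.

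**Figure D1:**
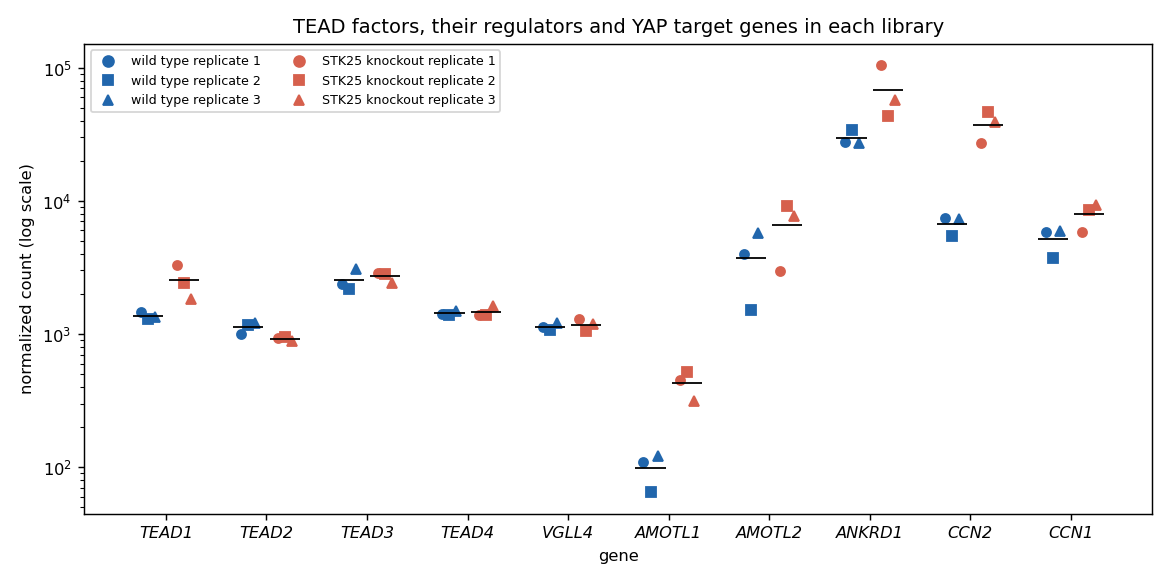
Normalized counts of the 10 members in each of the 6 libraries on a log scale, with wild-type libraries in blue, knockout libraries in red, a marker shape for each replicate number and a bar at each genotype's mean. The 3 knockout values lie above the 3 wild-type values for TEAD1, AMOTL1, ANKRD1 and CCN2, and below them for TEAD2.

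CCN2 had the largest change among the members by adjusted p and by log2 fold change. It encodes connective tissue growth factor, a secreted matricellular protein that is widely used as a readout of YAP. It stood at 7401, 5480 and 7303 normalized counts in the wild type and at 26967, 46067 and 39025 in the knockout. The lowest knockout library was 3.64 times the highest wild-type library. The means were 6728 ± 1082 and 37353 ± 9659 (SD, n = 3 each), a 5.55-fold difference. On the log2 scale the knockout was higher by 2.45 (SE 0.26, limma adjusted p = 0.00126), and by 2.28 to 2.67 when single libraries were left out (limma adjusted p from 0.000600 to 0.0113). Per kilobase of transcript, CCN2 ranked between 806 and 1294 of 15181 genes in the wild type and between 97 and 370 in the knockout. GENCODE 29 (GRCh38, the build that the submitters' processing notes name) places the gene, ENSG00000118523.5, at chr6:131948176-131951373 on the minus strand. Of its 2339 exonic bases 195 are shared with another annotated gene, AL133346.1, and no source used here says whether strand was counted.

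CCN1, the closest relative of CCN2 in this set and a secreted matricellular protein too, did not pass. It stood at 5797, 3692 and 5908 normalized counts in the wild type and at 5866, 8597 and 9318 in the knockout. Knockout replicate 1 lay among the wild-type values, so the genotypes overlapped. The log2 fold change of 0.63 had a 95% interval of 0.0055 to 1.26 (limma adjusted p = 0.178). It was 0.41 with only wild-type replicate 2 left out (limma adjusted p = 0.329) and 0.35 with equal totals (0.565). With both libraries that stand apart left out it was 0.61 (limma adjusted p = 0.00371), in a fit chosen after the data were seen in which 30.6% of all genes passed. The gene is at chr1:85580761-85583962 on the plus strand.

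The ratio of these 2 genes within a library does not depend on how libraries are scaled. CCN2 stood at 1.277, 1.484 and 1.236 times CCN1 in the wild-type libraries and at 4.597, 5.359 and 4.188 times in the knockout libraries. The genotypes did not overlap, and the log2 ratio was higher in the knockout by 1.82 with an SE of 0.13. An exact two-sided permutation test gave p = 0.1, the smallest that 3 against 3 values allow. The ratios were chosen after the data were seen, and CCN2 alone already showed no overlap. The difference ran from 1.72 to 1.90 when single libraries were left out. Knockout replicate 1, in which CCN1 was within its wild-type range, had a ratio between those of the other 2 knockout libraries. The ratio of CCN2 to ANKRD1 overlapped, at 0.268, 0.161 and 0.269 in the wild type and 0.259, 1.06 and 0.683 in the knockout (exact two-sided permutation p = 0.3). That of CCN2 to AMOTL2 did not, at 1.86, 3.59 and 1.27 in the wild type and 9.09, 5.08 and 5.08 in the knockout (exact two-sided permutation p = 0.1).

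**Figure D2:**
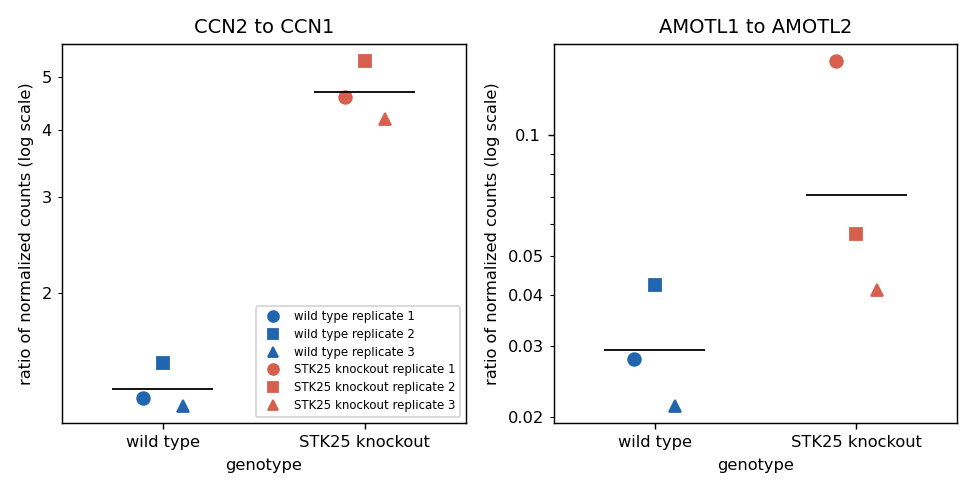
Ratio of the normalized counts of CCN2 to CCN1 (left) and of AMOTL1 to AMOTL2 (right) within each library, on log scales, with a bar at each genotype's geometric mean and a marker shape for each replicate number. The CCN2 to CCN1 ratio lies between 1.236 and 1.484 in the wild type and between 4.188 and 5.359 in the knockout, and the ratios on the right overlap. Both ratios were chosen after the data were seen.

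ANKRD1 was the most abundant member per kilobase. It encodes a cardiac ankyrin repeat protein found at the titin-based part of the sarcomere and in the nucleus, and it is induced when heart muscle is stretched. Its normalized counts were 27581, 34006 and 27174 in the wild type and 104012, 43602 and 57157 in the knockout. All knockout values lay above all wild-type values, by 1.282-fold at the closest, and knockout replicate 1 stood far above the other two. The log2 fold change of 1.12 (SE 0.34) did not pass the threshold (limma adjusted p = 0.0704, edgeR's quasi-likelihood test 0.0595, DESeq2 0.00663). Without knockout replicate 1 it was 0.76 (limma adjusted p = 0.0613) and without knockout replicate 2 it was 1.39 (limma adjusted p = 0.0482). When single libraries were left out, limma adjusted p-values ran from 0.0482 to 0.226, the highest without wild-type replicate 1. Only the fit without knockout replicate 2 passed. The rank of ANKRD1 per kilobase was between 132 and 187 of 15181 genes in the wild type and between 74 and 79 in the knockout. Knockout replicate 1 thus held the highest ANKRD1 value but the lowest knockout values of CCN2 and CCN1. The gene is at chr10:90912096-90921276 on the minus strand.

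AMOTL1 rose from a low level. It belongs to the angiomotin family, scaffold proteins of cell junctions and the actin cytoskeleton that bind YAP and hold it in the cytoplasm. It had 110, 64.7 and 122 normalized counts in the wild type and 453, 516 and 316 in the knockout, from 73 to 463 recovered reads. The lowest knockout value was 2.58 times the highest wild-type value. The means were 99.2 ± 30.4 and 428 ± 102 (SD, n = 3 each), a log2 difference of 2.12 (SE 0.36, limma adjusted p = 0.00878, or 0.0172 to 0.0366 when single libraries were left out). Per kilobase of the longest transcript it was the lowest member in each library, with a mean of 11.1 in the wild type and 47.7 in the knockout. It is at chr11:94706431-94876753 on the plus strand, and 496 of its 10035 exonic bases are shared with AP002383.2.

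AMOTL2, its relative, which YAP is known to induce as well, varied widely between replicates. It had 3971, 1528 and 5746 normalized counts in the wild type and 2967, 9073 and 7676 in the knockout. Wild-type replicate 2 and knockout replicate 1 were the lowest of their genotypes, as they were for CCN1, and the genotypes overlapped. Its log2 fold change of 0.86 had an interval of -0.46 to 2.17 (limma adjusted p = 0.385). It was 0.31 with wild-type replicate 2 left out and 1.35 with knockout replicate 1 left out. Without both libraries it was 0.80 (limma adjusted p = 0.00613). That fit has 2 libraries a genotype, was chosen after the data were seen and put 30.6% of all genes past the threshold. The gene is at chr3:134355874-134375479 on the minus strand. The ratio of AMOTL1 to AMOTL2 was 0.0278, 0.0424 and 0.0213 in the wild type and 0.153, 0.0569 and 0.0412 in the knockout, which overlapped (exact two-sided permutation p = 0.2). AMOT, the remaining angiomotin, held 139, 201 and 318 normalized counts in the wild type and 613, 369 and 283 in the knockout, and it did not pass (limma adjusted p = 0.183).

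**Figure D3:**
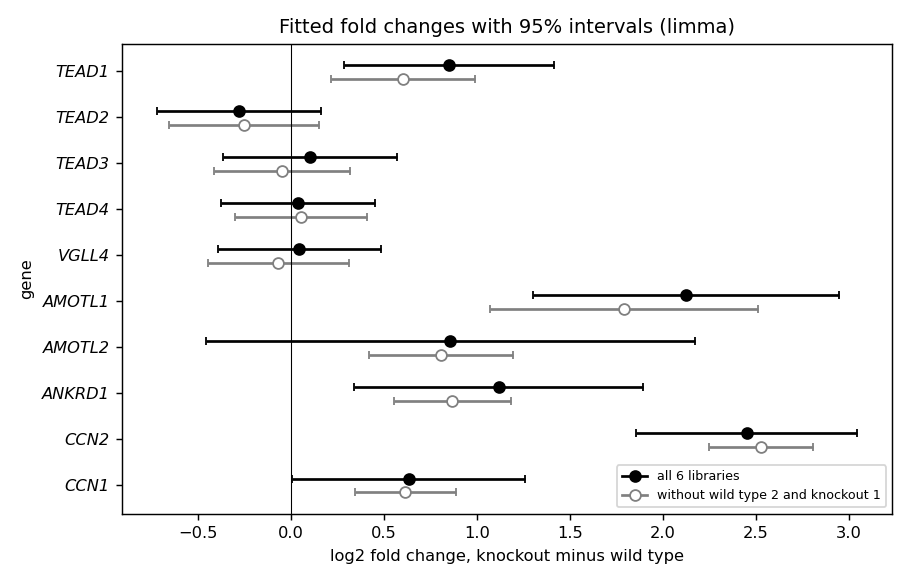
Log2 fold change of each member (knockout minus wild type) with its 95% interval from limma, over all 6 libraries (filled) and without wild-type replicate 2 and knockout replicate 1 (open). The intervals of AMOTL2, ANKRD1 and CCN1 shorten most without these libraries, while CCN2 and AMOTL1 lie above 1 in both fits.

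Among the TEAD factors, TEAD1 had the largest log2 fold change. TEAD1 is a family member known to bind MCAT elements in heart muscle. It had 1458, 1300 and 1333 normalized counts in the wild type and 3311, 2423 and 1846 in the knockout. The genotypes did not overlap, and the knockout libraries spread more (coefficient of variation 29.2%, against 6.09% in the wild type). The log2 fold change of 0.85 (SE 0.24) did not reach the threshold (limma adjusted p = 0.0602, edgeR's quasi-likelihood test 0.0577, DESeq2 0.0117). Leaving out single libraries gave limma adjusted p-values of 0.0586 to 0.169. Leaving out the 2 that stand apart gave 0.60 with a limma adjusted p of 0.0242, in a fit where 30.6% of all genes passed. The gene is at chr11:12674591-12944483 on the plus strand.

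TEAD2, which is best known from the early embryo, leaned the other way. It held 995, 1168 and 1216 normalized counts in the wild type and 929, 954 and 892 in the knockout. The genotypes did not overlap, but the log2 fold change of -0.28 did not pass (interval -0.72 to 0.16, limma adjusted p = 0.397). With equal totals it was -0.56 (limma adjusted p = 0.139). It is at chr19:49340595-49362457 on the minus strand and shares 319 exonic bases with CD37.

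For TEAD3, TEAD4 and VGLL4 the genotypes overlapped, and their means were no further apart than the replicates. TEAD3 held 2387, 2188 and 3068 normalized counts in the wild type and 2892, 2818 and 2420 in the knockout. TEAD4, a factor known from the trophectoderm and skeletal muscle, held 1415, 1382 and 1487 in the wild type and 1393, 1402 and 1614 in the knockout. VGLL4, which competes with YAP for TEAD, held 1134, 1077 and 1206 in the wild type and 1300, 1045 and 1187 in the knockout. Their log2 fold changes were 0.10, 0.04 and 0.04, and all 3 were negative with equal totals (-0.18, -0.24 and -0.24). The intervals ran from -0.37 to 0.57 for TEAD3, from -0.38 to 0.45 for TEAD4 and from -0.40 to 0.48 for VGLL4 (limma adjusted p of 0.806, 0.922 and 0.917). TEAD3 is at chr6:35473597-35497076 (minus strand), TEAD4 at chr12:2959330-3040673 (plus strand) and VGLL4 at chr3:11556070-11771350 (minus strand). Of the 7236 exonic bases of VGLL4, 1715 are shared with ATG7 or AC022001.2, the largest number among the members.

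The make-up of the TEAD family was compared per kilobase of the longest transcript of each gene. TEAD1 made up 7.75%, 7.02% and 6.13% of the summed TEAD level in the wild-type libraries and 15.2%, 11.7% and 9.27% in the knockout libraries. Its mean share was 6.97% ± 0.81 in the wild type and 12.1% ± 3.0 in the knockout (SD, n = 3 each). TEAD2 had 19.9% ± 1.8 in the wild type and 15.5% ± 0.56 in the knockout (SD, n = 3 each). For both genes the libraries of the 2 genotypes did not overlap, and the exact two-sided permutation p was 0.1, the smallest possible. TEAD3, at 36.6% and 37.0%, and TEAD4, at 36.5% and 35.5%, made up most of the family in both genotypes, with exact permutation p-values of 0.9 and 0.8. The summed level was 2322 ± 211 per kilobase in the wild type and 2455 ± 108 in the knockout (SD, n = 3 each, exact permutation p = 0.3). The shares depend on the length used, and the longest transcript of TEAD1 has 8477 bases and its median transcript 2544. With median lengths the share of TEAD1 was 13.2% in the wild type and 21.7% in the knockout, and undivided 21.2% and 32.7%. TEAD4 had 48.6% and 45.1% with median lengths, and 22.1% and 19.5% undivided. TEAD3 had 22.8% and 21.9% with median lengths, and 39.2% and 35.6% undivided.

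**Figure D4:**
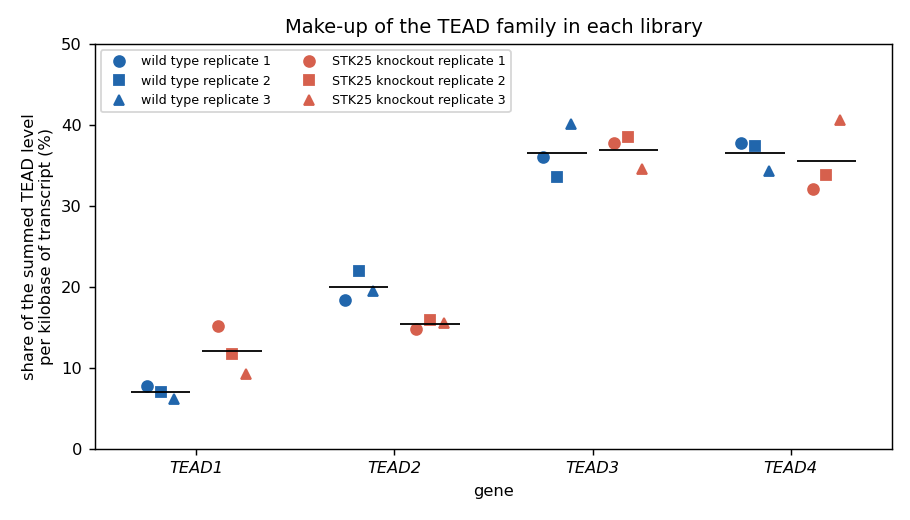
Share of each TEAD gene in the summed TEAD level per kilobase of the longest transcript, by library, with wild type in blue, knockout in red and a bar at each mean. TEAD1 lies at 6.13% to 7.75% in the wild type and 9.27% to 15.2% in the knockout, TEAD2 is lower in the knockout libraries, and TEAD3 and TEAD4 overlap.

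Ordered by mean level per kilobase in the wild type, the members ran from ANKRD1 (14950) through CCN2 (2876), CCN1 (2241), TEAD3 (854), TEAD4 (845), AMOTL2 (829), TEAD2 (462), VGLL4 (306) and TEAD1 (161) to AMOTL1 (11.1). CCN2 and CCN1 overlapped there, as did TEAD3, TEAD4 and AMOTL2, and the lowest AMOTL2 library fell under the level of TEAD2. In the knockout CCN2, at 15970 per kilobase, no longer overlapped CCN1, at 3462. In the knockout the range of TEAD1 (mean 298) overlapped those of VGLL4 (316) and TEAD2 (379), where in the wild type each of the 3 stood apart. This order and these overlaps hold for the longest transcript of each gene only. With median lengths TEAD4 stood at 1981 and TEAD3 at 933 in the wild type. The median transcript of AMOTL2 has 713 bases and its longest 4521, and those of VGLL4 have 728 and 3725.

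The genes whose profile over the 6 libraries was nearest to a member past the threshold were taken from all 15536 tested genes. Likeness was the root mean square difference of log2 values after subtracting each gene's mean. SLC2A12, a sugar transporter gene, was nearest to CCN2, at 0.067, with 233, 186 and 238 normalized counts in the wild type and 914, 1370 and 1251 in the knockout. TDGF1, which encodes the NODAL coreceptor Cripto, was the next, at 0.129, and its total may include reads of its near-identical pseudogene copies. SLC5A12, a monocarboxylate transporter gene, was nearest to AMOTL1, at 0.104, with 168, 91.4 and 162 normalized counts in the wild type and 625, 639 and 392 in the knockout.

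The genes upstream of TEAD were examined as lists. Of 8 core Hippo genes (STK3, STK4, SAV1, MOB1A, MOB1B, LATS1, LATS2 and NF2), 0 of 8 passed with limma (also without the 2 libraries that stand apart), edgeR or DESeq2. Over all genes 12.8% passed with limma, 30.6% without the 2 libraries and 20.7% with DESeq2, and edgeR called 1864 of 15536 genes. Of the 8, 0 had an unadjusted p under 0.05 with limma, where 27.5% of all genes did. Their median log2 fold change was 0.08. YAP1 and WWTR1, the genes of YAP and TAZ, did not pass. YAP1 held 1455, 1552 and 1292 normalized counts in the wild type and 1523, 1382 and 1043 in the knockout (log2 fold change -0.14, interval -0.63 to 0.36, limma adjusted p = 0.744). WWTR1 held 3906, 2258 and 4258 in the wild type and 1861, 3753 and 3196 in the knockout, and wild-type replicate 2 and knockout replicate 1 were again its lowest (log2 fold change -0.25, interval -1.04 to 0.54, limma adjusted p = 0.701). Of the 6 partners of TEAD or YAP listed (YAP1, WWTR1, VGLL1, VGLL2, VGLL3 and AMOT), VGLL1 and VGLL2 had no read in any library and 0 of the 4 tested passed, with or without the 2 libraries that stand apart. RNA totals do not show where YAP or TAZ protein lay or how it was phosphorylated.

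Of 18 further YAP targets from a published signature, 16 were tested and 3 passed the threshold, all higher, where 12.8% of all genes passed and 5.97% passed as higher. With DESeq2, where 20.7% of all genes passed, 5 passed, the same 3 higher and AXL and FJX1 lower. Limma at equal upper quartiles, where 2009 genes passed against 1982 in the main fit, called the same 5. The median log2 fold change of the 16 was 0.25, with 11 of the 16 above 0. CRIM1, a membrane protein that binds growth factors, went from 39.3, 39.6 and 77.2 normalized counts in the wild type to 234, 318 and 282 in the knockout (log2 fold change 2.46, SE 0.38, limma adjusted p = 0.00613). TGFB2, a ligand of the TGF-beta family, went from 2240, 1568 and 2007 to 3643, 5345 and 4169 (log2 fold change 1.18, SE 0.23, limma adjusted p = 0.0149). IGFBP3, which binds insulin-like growth factors, went from 1035, 1119 and 1033 to 1959, 1909 and 2011 (log2 fold change 0.88, SE 0.17, limma adjusted p = 0.0158). AXL and FJX1, named after their values were seen, were lower and did not pass with limma, AXL at -1.01 (limma adjusted p = 0.0772) and FJX1 at -1.89 (limma adjusted p = 0.0584). NT5E had no read in any library. Leaving out wild-type replicate 3, knockout replicate 2 or knockout replicate 3, or scaling to equal totals, left 1 call, CRIM1. In these fits, in that order, limma gave adjusted p-values of 0.0564, 0.0517, 0.0609 and 0.0986 for TGFB2 and of 0.0720, 0.0537, 0.0744 and 0.0905 for IGFBP3. IGFBP3 also missed the threshold in the absence of wild-type replicate 1, at 0.0872. Without the 2 libraries that stand apart the count was 6, of which 4 were higher and 2, AXL and FJX1, lower, where 30.6% of all genes passed.

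**Figure D5:**
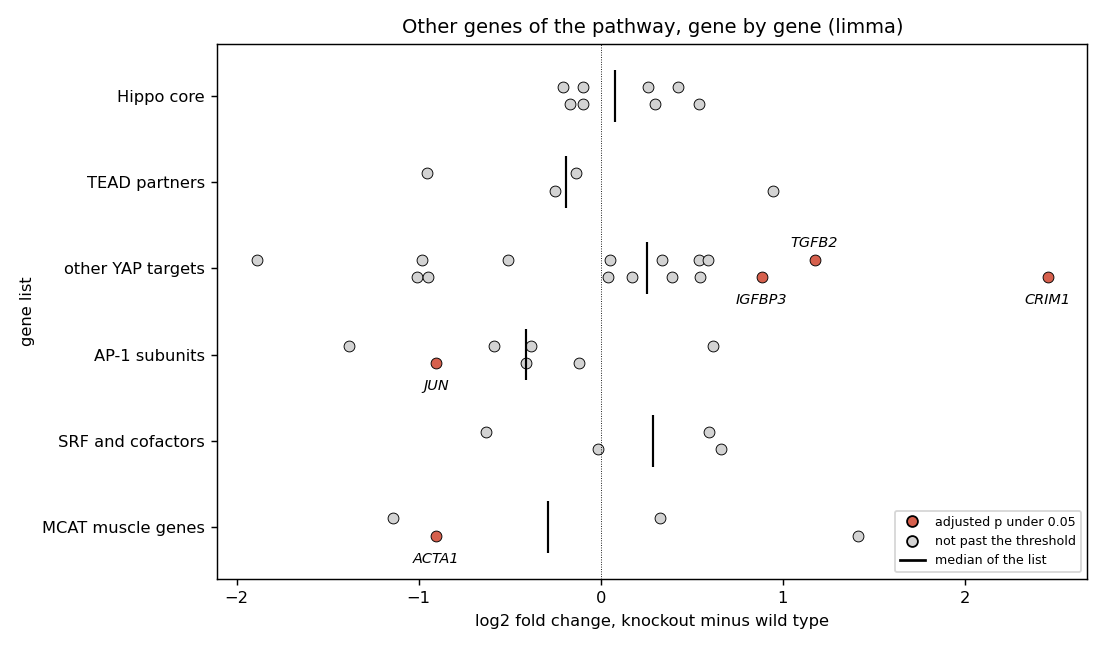
Log2 fold change (knockout minus wild type) of each tested gene in 6 lists, 1 point a gene, red where limma's adjusted p was under 0.05, with a bar at each list's median. CRIM1, TGFB2 and IGFBP3 are the red points among the other YAP targets, none of the Hippo core genes or TEAD partners is red, and JUN and ACTA1 are red on the lower side.

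Relatives of the target genes were low. Of the other 4 CCN genes none reached a mean of 10 normalized counts over the 6 libraries. CCN3 held 19.6, 23.6 and 0 in the wild type and had no read in the knockout. ANKRD23, another relative of ANKRD1, held 43.8, 18.3 and 23.6 in the wild type and 104, 44.6 and 12.4 in the knockout. Its genotypes overlapped and it did not pass (limma adjusted p = 0.728). ANKRD2, the skeletal muscle relative of ANKRD1, held 0, 11.4 and 18.5 normalized counts in the wild type and 87.7, 88.1 and 123 in the knockout, and it passed narrowly (log2 fold change 3.99, SE 1.07, limma adjusted p = 0.0485). edgeR gave an adjusted p of 0.0593. With limma the call was lost when wild-type replicate 2 (0.0636), wild-type replicate 3 (0.0504), knockout replicate 1 (0.0746), knockout replicate 2 (0.103) or knockout replicate 3 (0.153) was left out.

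AP-1 and SRF are known to act on CCN1, CCN2 and ANKRD1 beside TEAD. Of 7 AP-1 subunit genes, 1 passed with limma as lower and 0 as higher, where 12.8% of all genes passed. The median log2 fold change of the 7 was -0.41. JUN held 2249, 1827 and 2136 normalized counts in the wild type and 977, 1074 and 1273 in the knockout (log2 fold change -0.90, SE 0.20, limma adjusted p = 0.0237). This call was lost when wild-type replicate 1 (0.122), wild-type replicate 3 (0.0969), knockout replicate 2 (0.0755) or knockout replicate 3 (0.0570) was left out. Without the 2 libraries that stand apart 1 of the 7 passed as higher, JUNB, and 2 as lower, JUN and JUND, where 30.6% of all genes passed. DESeq2, with which 20.7% of all genes passed, made the same 3 calls. Limma at equal totals called JUN and JUND as lower. SRF and its 3 cofactor genes MRTFA, MRTFB and MYOCD did not pass, with limma adjusted p-values of 0.0955, 0.103, 0.979 and 0.107. With DESeq2, where 20.7% of all genes passed, SRF and MRTFA passed as higher and MYOCD as lower. Without the 2 libraries limma called MYOCD alone, as lower.

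TNNT2, MYH7, MYH6 and ACTA1 are contractile genes whose promoters are known for MCAT elements, which were not searched here. Of the 4, 1 passed the threshold with limma as lower and 0 as higher, where 12.8% of all genes passed. With DESeq2, where 20.7% of all genes passed, MYH7 passed as higher and MYH6 and ACTA1 as lower. At equal upper quartiles and at equal totals limma called MYH6 and ACTA1, both lower. In those fits 2009 and 2012 genes passed, against 1982 in the main fit. Without the 2 libraries that stand apart 2 passed as lower, MYH6 and ACTA1, and 1 as higher, MYH7, where 30.6% of all genes passed. ACTA1, skeletal alpha-actin, held 14635, 10187 and 14705 normalized counts in the wild type and 6211, 7599 and 7045 in the knockout (log2 fold change -0.91, SE 0.21, limma adjusted p = 0.0317). The call was lost when wild-type replicate 1 (0.148), wild-type replicate 3 (0.127), knockout replicate 2 (0.0678) or knockout replicate 3 (0.111) was left out, and its reads could have been split with other actins. MYH7 stood at 1.42 on the log2 scale (limma adjusted p = 0.0639) and MYH6 at -1.14 (limma adjusted p = 0.0531), and these near-identical myosin genes could have exchanged reads.

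CCN2 and CCN1 are also strongly expressed by stromal and smooth muscle cells, so markers of other cell types are given beside them. In bulk RNA, a change in the number of cells of a type and a change in RNA per cell cannot be told apart. Over all genes 12.8% passed with limma, and 30.6% without the 2 libraries that stand apart. All 4 smooth muscle genes (ACTA2, TAGLN, CNN1 and MYH11) rose past the threshold. Their summed level went from between 77993 and 87796 normalized counts in the wild type to between 486822 and 536050 in the knockout. At equal totals, where 2012 genes passed against 1982 in the main fit, ACTA2, TAGLN and MYH11 passed as higher and CNN1 did not pass. MYH11, smooth muscle myosin, held 314, 152 and 295 in the wild type and 7561, 9796 and 8121 in the knockout (limma adjusted p = 0.000175), while ACTA2 and TAGLN are also expressed by immature cardiomyocytes. Of 7 fibroblast genes, COL3A1 and DCN rose, COL1A2 fell and 4 did not pass, and the summed level was between 12893 and 26523 in the wild type and between 7662 and 16208 in the knockout. Of 4 epicardial genes TCF21 rose past the threshold, and all 4 had a log2 fold change above 0. Their summed level was 103 to 212 in the wild type and 658 to 999 in the knockout. Of 5 endothelial genes 3 were tested and 0 passed. CDH5 had at most 1 read in any library, and the summed level was 139 to 465 in the wild type and 367 to 545 in the knockout. Of 5 endoderm genes AFP fell, FOXA2 had no read, and the summed level was 1659 to 3003 in the wild type and 1169 to 1248 in the knockout. Of 3 pluripotency genes 2 were tested and 0 passed, with a summed level of 104 to 191 in the wild type and 127 to 243 in the knockout. Without the 2 libraries that stand apart, 4 of the 4 smooth muscle genes were again higher, 4 fibroblast genes were higher and 3 lower. Of 3 epicardial genes tested then, TCF21 was again the one past the threshold, and 4 cardiomyocyte genes were higher and 2 lower. In that fit 0 endothelial and 0 pluripotency genes passed and AFP was again lower. With DESeq2, where 20.7% of all genes passed, the calls added were ACTN2, TTN, MYL7, TBX18 and the gene WT1 as higher, and COL1A1 and TTR as lower. The part of other cell types in the higher CCN2 level was not tested.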

How the data were processed

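RNA of 3 wild-type and 3 STK25 knockout cardiomyocyte libraries was measured. The submitters' processing notes name bcl2fastq 2.19, kallisto 0.44.0, DESeq2 1.28.1 and the build GRCh38, with no role or order; kallisto's annotation is not given in the sources used here. The deposited table holds a signal that the authors call normalized counts, 1 per gene symbol and library. In each library 100% of values were whole multiples (tolerance 0.001 reads) of 1 step, so whole reads were recovered by division, from 22443904 to 53224112 per library. Depth covers counting error only, since the labels name no molecular identifiers. Replicates of a genotype all differed beyond sampling noise (chi-square over its degrees of freedom, 18.9 to 363).

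limma 3.58.1 (R 4.3.3) was fitted to log2(value + 1) with a trend, for the 15536 genes with a mean of at least 10, and p-values were Benjamini-Hochberg adjusted over all of them, with a threshold of 0.05. Fold changes are on that scale, which understates those of low genes. As alternatives, the recovered reads were tested with edgeR 4.0.16 (quasi-likelihood) and DESeq2 1.42.0. Intervals from limma are at 95%. Fits were tested on simulated data. Single values were compared with exact two-sided permutation tests. Levels per kilobase used the longest GENCODE 29 transcript of each symbol, found for 97.7% of tested genes. Figures were drawn with matplotlib 3.10.9.

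The members and lists were chosen with earlier results of these data known. Besides the members, the genes named are STK25, YAP1, WWTR1, genes of the other lists with an adjusted p under 0.05 (at most 6 per list) and, for each member past the threshold, the 2 genes with the nearest profile, of which 1 is not reported here; others were named after their values were seen. Alternatives were another pseudocount, filter, scaling or moderation, the replicate number as a block, edgeR, DESeq2 and leaving out each library. Leaving out 2 libraries together and the within-library ratios were chosen after seeing the data. Replicate numbers do not pair the samples.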

Additional observations from a re-analysis of the deposited data

How the results depend on the processing

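CCN2 and AMOTL1 stayed past the threshold in all 20 alternatives, with log2 fold changes of 2.10 to 2.67 and 1.79 to 2.33. The count of members past it was 2 in the other fits, 4 with DESeq2 and 6 without the 2 libraries that stand apart, and 2 to 3 when single libraries were left out. Over all genes the count of 1982 became 798 with the replicate block, 3210 with DESeq2, 4706 without those 2 libraries, and 792 (without wild-type replicate 1) to 2192 (without knockout replicate 1) when single libraries were left out. Among other YAP targets the count of 3 became 5 with equal upper quartiles (3 higher, 2 lower), 1 with equal totals, 1 with the replicate block, 5 with DESeq2 (3 higher, 2 lower), 6 without the 2 libraries (4 higher, 2 lower) and 1 to 4 when single libraries were left out. The replicate numbers pair nothing in the labels: deviations of same-numbered libraries correlated at -0.23, -0.40 and 0.17, and wild-type replicate 2 correlated best with knockout replicate 1 (0.45). With the block the members' count was 2. Directions turned for some genes far from the threshold. TEAD3 went to -0.18 with equal totals, -0.0022 without wild-type replicate 2 (up to 0.24 when another library was left out) and -0.051 without the 2 libraries. TEAD4 went to -0.0091 with equal upper quartiles, -0.24 with equal totals and -0.031 without knockout replicate 3 (up to 0.075). VGLL4 went to -0.0037 with equal upper quartiles, -0.24 with equal totals, -0.030 without knockout replicate 1 (up to 0.13) and -0.070 without the 2 libraries. YAP1 went to 0.022 without knockout replicate 3 (down to -0.25) and WWTR1 to 0.048 without knockout replicate 1 (down to -0.53). The cause of these changes was not tested. The TEAD1 share was higher in the knockout by 5.08 percentage points, and by 3.49 to 6.47 when single libraries were left out, 8.51 with median lengths and 11.5 undivided. With 3 libraries a genotype, an exact test cannot go below 0.1, and the least abundant member, AMOTL1, rests on as few as 73 reads in a library.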
